A study of Rattus norvegicus with 12 samples.

Results

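The 10 genes described here encode the proteins that release calcium from the sarcoplasmic reticulum of the heart muscle cell and pump it back: Atp2a2, Pln, Cacna1c, Ryr2, Casq2, Trdn, Asph, Hrc, Jph2 and Camk2d. They were chosen by name, and all 10 were found among the 34700 genes of the deposited count table, each as 1 row. RNA-seq was run on left ventricular tissue of 12 male Sprague-Dawley rats, operated on at 8 weeks of age and killed 12 weeks later, with 3 rats in each of 4 groups. In Sham rats a thread was passed around the left anterior descending coronary artery without tying it. In HF rats the artery was tied and the rats stayed untrained. HFE rats had the artery tied and then ran on a treadmill for 60 min per day on 5 days per week for 8 weeks. BAIBA rats had it tied and received β-aminoisobutyric acid, a small molecule released by working skeletal muscle, by gavage at 75 mg/kg per day for 8 weeks. The 3 ligated groups thus share the infarct, and none of the treated groups was free of it.

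Several features limit these groups as a model. Heart failure followed a permanent infarct, and the piece of anterior wall that was sequenced lay around the infarct in the BAIBA and HF rats, whereas the place sampled relative to the infarct is not given for HFE. Running and BAIBA belonged to separate experiments in the methods, with water by gavage as the control in the BAIBA experiment. The study's supplement names sequencing as a use of the hearts of the exercise experiment, and only biochemical analysis for those of the BAIBA experiment, although BAIBA libraries are part of the series. It does not name the experiment for each Sham and HF library. The labels number the rats in each group and say no more about them, so p-values measure the spread between these libraries. Between 14812541 and 19732588 read counts were assigned to genes per rat.

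In each heartbeat, calcium entering through the L-type channel opens ryanodine receptors in the facing membrane of the sarcoplasmic reticulum, and the calcium released through them makes the filaments contract. The pump SERCA2a then returns calcium to the store, held back by phospholamban until phospholamban is phosphorylated. Calsequestrin binds calcium inside the store, triadin, junctin and the histidine-rich calcium binding protein link or tune the release channel from the luminal side, junctophilin-2 holds the 2 membranes together, and the kinase CaMKII phosphorylates both the release channel and phospholamban. Loss of SERCA2a and changed release are textbook features of the failing heart.

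No member passed the test in any comparison. Called genes had an adjusted p under 0.05 (edgeR's quasi-likelihood test, Benjamini-Hochberg over all genes tested) together with a log2 fold change beyond 1 in either direction, and 0 of the 10 members were called in each of the 6 pairwise comparisons and 0 of 10 for any difference among the 4 groups. The same rule called few genes of any kind. It called 0.0% of all genes tested for HF against Sham, 0.0% for HFE against HF, 0.0% for BAIBA against HF, 0.0808% for BAIBA against HFE, 0.0% for HFE against Sham and 0.0402% for BAIBA against Sham. The test of any difference among the 4 groups called 0.0% of genes. DESeq2 under the same rule also called 0 members in each pair of groups. The members' log2 fold changes lay between -0.49 and 0.47, so the size limit of 1 alone kept them from being called. All differences below are therefore values with their errors, given where the unadjusted p was under 0.05 or where the 3 rats of each group did not overlap.

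Asph was higher in the exercised rats than in all other rats, and in HFE against HF smaller differences in the same direction were seen for Trdn, Hrc and Camk2d. Asph encodes junctin, junctate and the enzyme aspartyl β-hydroxylase from 1 gene, and counts per gene cannot tell these products apart. Atp2a2 had a lower mean in each ligated group than in Sham, and Pln had its lowest mean in HF.

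**Figure D1:**
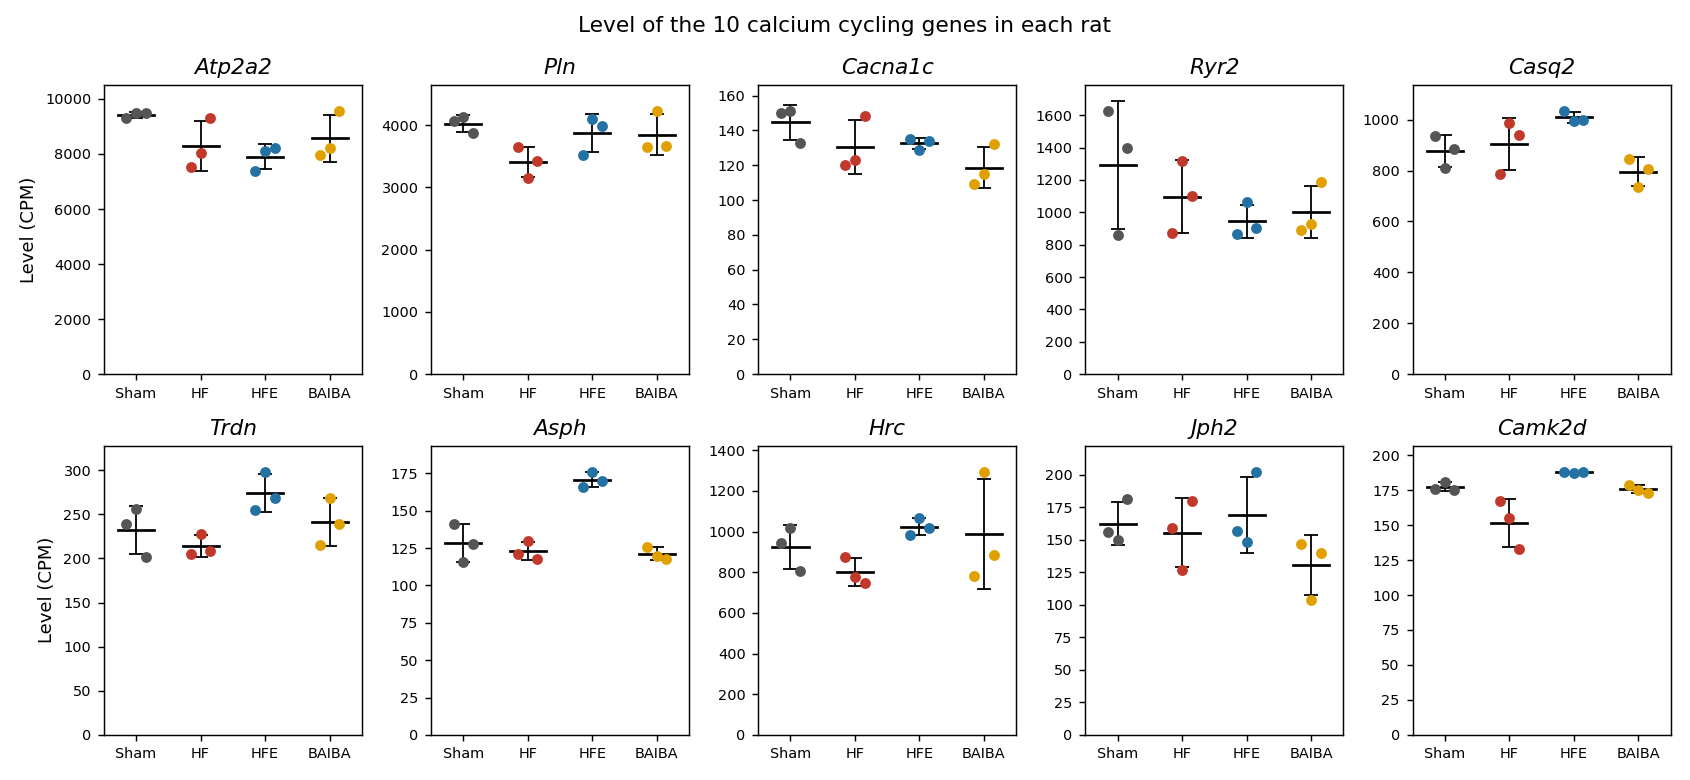
Level of each of the 10 genes in CPM (counts relative to the library size, scaled by edgeR's TMM factors), with 1 point per rat, a horizontal line at the group mean and bars of 1 SD (n = 3). Asph sat at 166 to 176 CPM in the 3 HFE rats and at 116 to 141 CPM in the other 9 rats, while the Ryr2 points of the Sham rats ran from 858 to 1625 CPM.

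The 300-base promoters of the pump and of its inhibitor are shown because these are the 2 members with the highest levels and their start regions have unlike base compositions. They come from RefSeq on the rat build GRCr8, which holds a promoter for 9 of the 10 members, with 250 bases before and 50 bases after the start, printed 5′ to 3′ on the gene's strand. Capitals mark matches to the GC box GGGCGG on either strand.
Atp2a2, chr12:39733269-39733568, plus strand: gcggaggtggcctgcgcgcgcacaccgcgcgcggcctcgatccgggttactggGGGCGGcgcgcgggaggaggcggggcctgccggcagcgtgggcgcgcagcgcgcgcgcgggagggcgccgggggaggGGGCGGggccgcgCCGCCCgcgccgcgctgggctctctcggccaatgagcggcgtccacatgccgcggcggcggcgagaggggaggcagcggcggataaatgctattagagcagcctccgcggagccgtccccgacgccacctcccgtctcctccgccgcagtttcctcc
Pln, chr20:33172244-33172543, plus strand: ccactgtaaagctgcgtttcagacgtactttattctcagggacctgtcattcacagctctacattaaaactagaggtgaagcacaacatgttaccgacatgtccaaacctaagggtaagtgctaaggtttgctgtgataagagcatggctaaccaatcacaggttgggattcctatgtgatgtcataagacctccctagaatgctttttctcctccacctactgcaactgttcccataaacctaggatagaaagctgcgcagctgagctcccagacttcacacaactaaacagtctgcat
The Atp2a2 window held 3 GC boxes and was 79.0% G and C, more than 98.8% of all promoters. The Pln window held 0 GC boxes and was 45.0% G and C, more than 25.3% of all promoters. GC boxes were present 3 times each in the Ryr2 and Camk2d windows too, with overlapping matches counted, and 0 times in those of Cacna1c, Casq2, Trdn, Hrc and Jph2. Of 33469 rat promoters of the same length, 33.1% held a GC box. The TATA box TATAAA, found in 14.2% of promoters, had 0 matches in both printed windows, and the E-box CANNTG, found in 72.1%, had 1 in Atp2a2 and 2 in Pln. These are descriptions of letters, and the files used here hold no measurement of binding at these windows.

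Levels per length, in the authors' FPKM, spread the 10 genes over a wide range of abundance. Pln led with a median of 1716 FPKM over the 12 rats and a range of 1385 to 1866, and Atp2a2 followed at 1246 (1129 to 1469). Pln stood above Atp2a2 in 12 of 12 rats, although their ranges overlapped. Both were above 99.9% of all genes in the table. After a gap that no rat crossed came Hrc, with a median of 365 FPKM, and Casq2, the luminal calcium buffer, with 359. Hrc was the higher of the 2 in 7 of 12 rats, so their order is not resolved. Jph2 at 73.6 FPKM and Ryr2 at 66.6 FPKM were likewise unresolved, with Jph2 higher in 6 of 12 rats. Below them stood Trdn at 51.9, Camk2d at 44.2, Cacna1c at 16.3 FPKM, and Asph was the lowest with a range of 10.4 to 15.6. Ryr2 was above Trdn and Trdn above Camk2d in 12 of 12 rats each, with overlapping ranges, and Cacna1c was above Asph in 11 of 12. Every member lay above at least 87.9% of genes, and the lowest count of a member in a single rat was 1629, for Jph2.

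**Figure D2:**
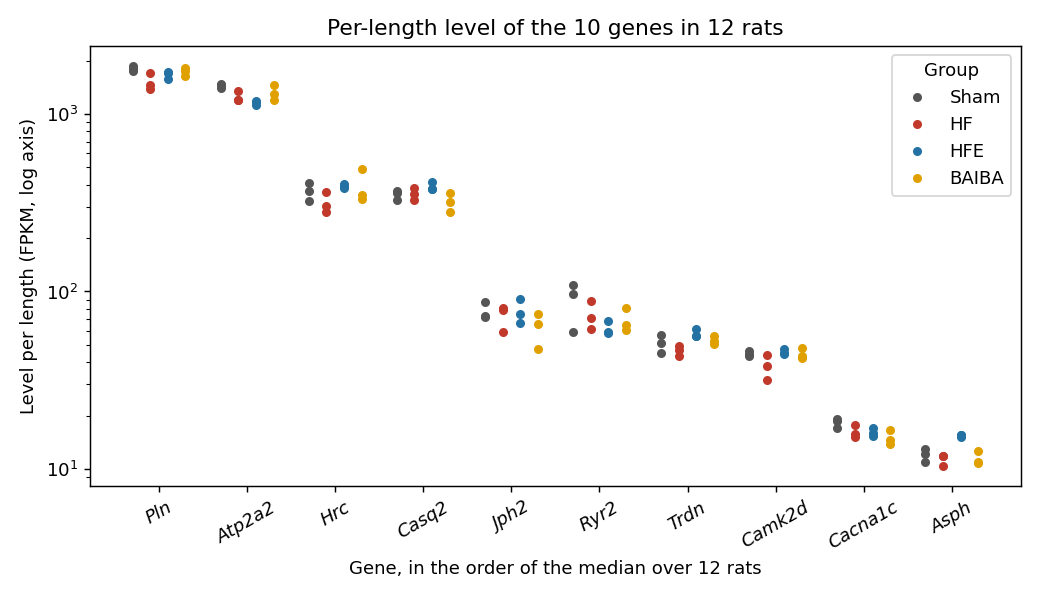
Per-length level of the 10 genes on a log axis (FPKM as deposited by the authors), with 1 point per rat coloured by group and genes in the order of their median over 12 rats. Pln and Atp2a2 lie at 1129 FPKM or more in all 12 rats, Hrc and Casq2 between 280 and 491, and Cacna1c and Asph at 19.2 or less.

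The level per length depends on the length that the authors assigned to each gene. Counts and FPKM together imply 14817 nucleotides for Ryr2, 10803 for Asph, 8000 for Cacna1c and 6620 for Atp2a2, against 2254 for Pln. In CPM, which ignores length, Atp2a2 stood above Pln, the reverse of their order per length, so only the per-length values are used to compare genes with each other.

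Uptake is carried by Atp2a2, the pump SERCA2, and by Pln, its inhibitor phospholamban. Atp2a2 was at 9306, 9496 and 9498 CPM in the Sham rats, at 7532, 8024 and 9300 in HF, at 7372, 8118 and 8218 in HFE and at 7951, 8204 and 9554 in BAIBA. The Sham rats lay within 1.02-fold of each other, all HF and all HFE rats lay below them, and 1 BAIBA rat lay above all of them. The margin between HF and Sham was narrow, with the nearest rats at 9300 and 9306 CPM. The log2 fold change was -0.19 ± 0.10 (SE) for HF against Sham, with an adjusted p of 0.808 (unadjusted 0.0978), and -0.25 ± 0.07 for HFE against Sham, with an adjusted p of 0.296 (unadjusted 0.006). These comparisons share the 3 Sham rats. Against HF, Atp2a2 differed by -0.07 in HFE, with a 95% interval of -0.30 to 0.17, and by 0.05 in BAIBA, with an interval of -0.26 to 0.35.

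Pln was at 4070, 4122 and 3867 CPM in Sham, at 3642, 3154 and 3420 in HF, at 3518, 4090 and 3990 in HFE and at 3652, 4222 and 3662 in BAIBA. Every HF rat lay below every Sham rat and every BAIBA rat, and the HFE rats overlapped both Sham and HF. Between HF and BAIBA the margin was narrow, with the nearest rats at 3642 and 3652 CPM. For HF against Sham, the log2 fold change of Pln was -0.24 ± 0.09 (SE), where the adjusted p was 0.805 (unadjusted 0.0294). It was 0.17 ± 0.12 for BAIBA against HF, where the adjusted p was 0.856 (unadjusted 0.182), and these comparisons share the HF rats.

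The ratio of pump to inhibitor transcripts within a rat needs no scaling between libraries. As a log2 ratio of counts, Atp2a2 over Pln was 1.19, 1.20 and 1.30 in Sham, 1.05, 1.35 and 1.44 in HF, 1.07, 0.99 and 1.04 in HFE and 1.12, 0.96 and 1.38 in BAIBA. The 3 HFE rats lay below the 3 Sham rats, and every other pair of groups overlapped. The difference of means was -0.20 for HFE against Sham (exact permutation test, two-sided, p = 0.1, the smallest p that 3 rats against 3 can give, adjusted over 6 comparisons 0.6). It was -0.25 for HFE against HF (exact p = 0.2) and 0.05 for HF against Sham (exact p = 0.8), and neither difference was beyond the spread between rats. BAIBA differed from HF by -0.12 (exact p = 0.6), from Sham by -0.08 (exact p = 0.7) and from HFE by 0.12 (exact p = 0.5).

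**Figure D3:**
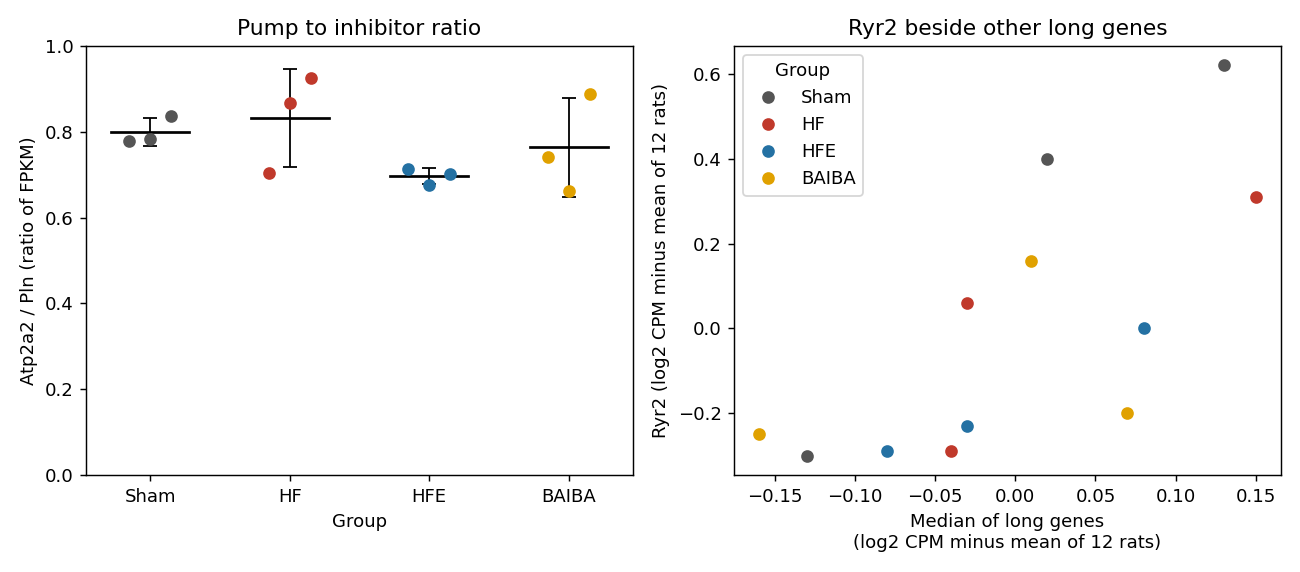
Left, the ratio of Atp2a2 to Pln in FPKM for each rat, with the group mean and bars of 1 SD (n = 3), on an axis that starts at 0. Right, Ryr2 against the median of 315 other long genes in each of the 12 rats, both as log2 CPM minus the mean of the 12 rats, with r = 0.733 over the rats. The HFE ratios cluster tightly below the Sham ratios, and Ryr2 follows the long genes across groups.

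The trigger for release enters through the L-type channel, whose pore is encoded by Cacna1c. Its level was 150, 151 and 133 CPM in Sham, 120, 123 and 148 in HF, 135, 129 and 134 in HFE and 109, 115 and 132 in BAIBA. The BAIBA rats lay below the Sham rats, by a margin of 1 CPM between the nearest pair, and no other groups were apart. For BAIBA against Sham, its log2 fold change was -0.28 ± 0.11 (SE), with an adjusted p of 0.638 (unadjusted 0.029). RefSeq places Dcp1b, with 3046 counts over the 12 rats, across part of the Cacna1c gene, and the strand setting of the authors' counting is not given in the sources used here, so some reads could belong to either gene. The same holds for Pln and Cep85l, with 1622 counts, and for Asph and Clvs1, with 45.

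The release channel itself, Ryr2, was the most variable member among the Sham rats and among the HF rats. It was at 1625, 858 and 1397 CPM in Sham, at 870, 1317 and 1104 in HF, at 864, 1061 and 906 in HFE and at 893, 925 and 1187 in BAIBA. The lowest value of all 12 rats belonged to a Sham rat and the highest to another Sham rat. Mean levels were 1294 ± 394 (SD, n = 3), 1097 ± 224, 944 ± 104 and 1002 ± 161 CPM in that order of groups, and no groups were apart. The 95% interval of the log2 fold change ran from -0.87 to 0.38 for HF against Sham and from -1.06 to 0.15 for HFE against Sham, and the second of these intervals held both 0 and -1.

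The variation of Ryr2 among rats went with that of other long genes. Over the 12 rats, the 3 genes whose levels were most like Ryr2, of 8188 genes with a mean of at least 10 CPM, were Herc2 (r = 0.935), Huwe1 (r = 0.929) and Zfp106 (r = 0.928). Their implied lengths were 15433, 12435 and 5815 nucleotides, where the median of the genes searched was 2652. Across the rats, Ryr2 had r = 0.733 with the median of 315 other genes of at least 8000 nucleotides, and r = 0.771 once group means were removed. That median was 0.13, -0.13 and 0.02 (log2, relative to the mean of the 12 rats) in the Sham rats, where Ryr2 was at 0.62, -0.30 and 0.40. For Asph, the next longest member, r was 0.147, and 0.576 with group means removed. For Cacna1c, at 8000 nucleotides, r was 0.0622, and 0.029 with group means removed. These correlations are descriptions over rats whose values share their library's scaling, and the part of length in the Ryr2 values was not tested.

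On the luminal side, Casq2 encodes the calcium buffer calsequestrin-2. It was at 937, 811 and 885 CPM in Sham, at 787, 985 and 941 in HF, at 1033, 995 and 997 in HFE and at 845, 734 and 807 in BAIBA. The HFE rats were the highest 3 of the 12 and lay within 1.04-fold of each other. BAIBA against HFE gave a log2 fold change of -0.34 ± 0.09 (SE), with an edgeR adjusted p of 0.25 (unadjusted 0.00526) and a DESeq2 adjusted p of 0.0438. It was 0.20 ± 0.08 for HFE against Sham, with an adjusted p of 0.384 (unadjusted 0.0267), and 0.16 ± 0.10 for HFE against HF, with an adjusted p of 0.711 (unadjusted 0.154). These 3 values share the HFE rats.

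Triadin, from Trdn, anchors calsequestrin to the release channel. Its level was 239, 256 and 202 CPM in Sham, 205, 228 and 208 in HF, 255, 298 and 269 in HFE and 215, 269 and 239 in BAIBA. All HFE rats lay above all HF rats, while they overlapped the Sham and BAIBA rats. Between HFE and HF the log2 fold change was 0.36 ± 0.09 (SE), with an adjusted p of 0.627 (unadjusted 0.00558), and for HFE against Sham it was 0.24 ± 0.10, with an adjusted p of 0.423 (unadjusted 0.0426). Trdn makes cardiac and skeletal forms by splicing, which counts per gene do not separate.

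Asph was at 141, 116 and 128 CPM in Sham, at 121, 130 and 118 in HF, at 166, 176 and 170 in HFE and at 126, 120 and 118 in BAIBA. Every HFE rat lay above every other rat of the series, and Sham, HF and BAIBA overlapped. The difference in means was 1.39-fold for HFE against HF, a log2 fold change of 0.47 ± 0.08 (SE) with a 95% interval of 0.29 to 0.66, an edgeR adjusted p of 0.584 (unadjusted 0.000428) and a DESeq2 adjusted p of 0.000391. For HFE against Sham the log2 fold change was 0.42 ± 0.09, with an edgeR adjusted p of 0.205 (unadjusted 0.00152) and a DESeq2 adjusted p of 0.0203. For BAIBA against HFE it was -0.49 ± 0.08, with an edgeR adjusted p of 0.131 (unadjusted 0.00041) and a DESeq2 adjusted p of 0.00035. The 3 comparisons share the HFE rats, so they are views of the same 3 libraries. BAIBA and HF differed by -0.02, with an interval of -0.24 to 0.20. The edgeR test of any difference among the 4 groups gave Asph an adjusted p of 0.241 (unadjusted 0.000211), the smallest p of the 10 members.

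The genes most like Asph over the 12 rats were Hacd1 (r = 0.879), an unnamed gene absent from Ensembl (r = 0.879) and Tspan9 (r = 0.878). Once group means were removed these became 0.414, 0.812 and 0.535. Tspan9 was also among the 3 genes most like Casq2, with r = 0.894.

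Hrc encodes the histidine-rich calcium binding protein, which binds triadin and SERCA from inside the store. It was at 944, 1017 and 804 CPM in Sham, at 876, 777 and 746 in HF, at 985, 1069 and 1016 in HFE and at 780, 1293 and 887 in BAIBA. The HFE rats lay above the HF rats, and the BAIBA rats spanned the widest range of any group, with both the second rat at the top of the series and the first rat near its bottom. HFE stood above HF by a log2 fold change of 0.35 ± 0.09 (SE), with an adjusted p of 0.627 (unadjusted 0.00487). For BAIBA against HF it was 0.30, with a 95% interval of -0.14 to 0.75.

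Jph2, junctophilin-2, ties the surface membrane to the store. It was at 156, 150 and 181 CPM in Sham, at 159, 127 and 180 in HF, at 157, 148 and 202 in HFE and at 147, 104 and 140 in BAIBA. The BAIBA rats lay below the Sham rats and the HFE rats and overlapped the HF rats. BAIBA against HFE gave a log2 fold change of -0.37 ± 0.17 (SE), with an adjusted p of 0.534 (unadjusted 0.0545), and -0.31 ± 0.15 for BAIBA against Sham, with an adjusted p of 0.703 (unadjusted 0.0652). Each group spanned at least 1.21-fold from its lowest to its highest rat.

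Camk2d, the main CaMKII gene of the heart, was the least variable member within HFE and within BAIBA. It was at 176, 181 and 175 CPM in Sham, at 167, 155 and 133 in HF, at 188, 187 and 188 in HFE and at 179, 175 and 173 in BAIBA. The groups stood in order, with HF lowest and HFE highest and no overlap of HF with any other group, and only Sham and BAIBA overlapped. In FPKM this separation was partly lost, since the highest HF rat, at 43.9, lay above the lowest Sham rat, at 43.5. The log2 fold change was -0.23 ± 0.10 (SE) for HF against Sham, with an adjusted p of 0.805 (unadjusted 0.0583), and 0.31 ± 0.10 for HFE against HF, with an adjusted p of 0.627 (unadjusted 0.0182). It was 0.21 ± 0.11 for BAIBA against HF, with an adjusted p of 0.851 (unadjusted 0.102). HFE stood 0.09 ± 0.06 above Sham, with an adjusted p of 0.631 (unadjusted 0.195), and BAIBA stood at -0.09 ± 0.08 against HFE, with an adjusted p of 0.794 (unadjusted 0.289).

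**Figure D4:**
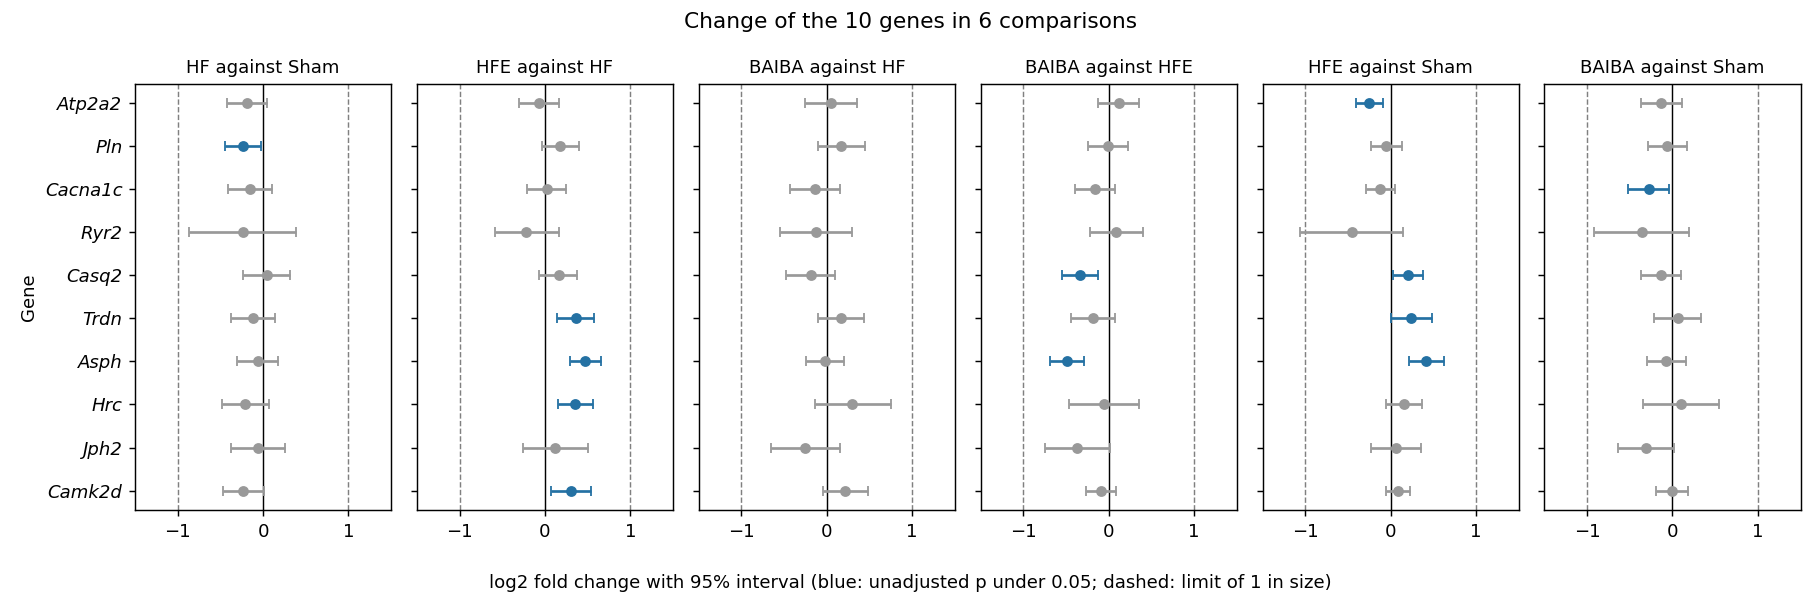
Log2 fold change of each gene in the 6 comparisons between pairs of groups, with the 95% interval from edgeR as bars (3 rats against 3), blue where the unadjusted p was under 0.05 and dashed lines at the size limit of 1. Of all the points the furthest from 0 is Asph, at 0.47 for HFE against HF and -0.49 for BAIBA against HFE, and the widest interval, -0.87 to 0.38, is that of Ryr2 in HF against Sham.

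Counted over the 10 members, most values in HF lay below Sham. In HF against Sham, 9 of 10 members were below 0 and 1 above, with a median log2 fold change of -0.17, where the median of all genes tested was 0.01. Of the members, 1 had an unadjusted p under 0.05, against 6.0% of all genes tested, and 3 (Atp2a2, Pln and Camk2d, all lower) did not overlap between groups, against 11.8%. With training, 8 of 10 members were above 0 in HFE against HF, with a median of 0.17 against -0.01 for all genes. There 4 members (Asph, Trdn, Hrc and Camk2d) had an unadjusted p under 0.05, against 7.62%, and 5 did not overlap, all higher, against 14.4%. With BAIBA the members divided evenly, 5 above and 5 below 0 in BAIBA against HF, with a median of 0.02. There 0 members had an unadjusted p under 0.05, against 5.55%, and 2 (Pln and Camk2d, higher) did not overlap, against 11.4%.

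Set directly against the trained rats, the BAIBA rats had 8 of 10 members below 0, with a median of -0.12 against 0.00 for all genes. Of these members 2, Asph and Casq2, had an unadjusted p under 0.05, against 9.57%, and 4 did not overlap, all lower, against 15.5%. In HFE against Sham, 6 members were above 0, 4 had an unadjusted p under 0.05, against 11.2%, and 4 did not overlap, against 17.7%, with Atp2a2 as the member that was lower. In BAIBA against Sham, 8 members were below 0, 1 had an unadjusted p under 0.05, against 7.41%, and 2 did not overlap, against 12.7%. The absence of overlap depended on the unit. In the authors' FPKM, chosen as an alternative after seeing the data, 2 members did not overlap in HF against Sham, 5 in HFE against HF, 1 in BAIBA against HF, 3 in BAIBA against HFE, 4 in HFE against Sham and 1 in BAIBA against Sham. Casq2 then overlapped in HFE against HF, Pln and Camk2d in BAIBA against HF, Jph2 in both of its comparisons, and Camk2d in every comparison but HFE against HF. Apart in FPKM and not in CPM were Atp2a2, lower in HFE than in HF and in BAIBA, Trdn, higher in BAIBA than in HF, and Pln, lower in HFE than in Sham. Asph was apart in FPKM too in each of the 3 comparisons with HFE. For any difference among the 4 groups, 3 members (Asph, Camk2d and Casq2) had an unadjusted p under 0.05, against 9.71% of genes.

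Cardiomyocyte transcripts were at their highest in the HFE rats. The summed level of the cardiomyocyte markers, of which 7 of 8 were measured (Tnnt2, Actc1, Tnni3, Mb, Myl2, Tnnc1 and Actn2), was 33900 to 37350 CPM in HFE, 30150 to 31400 in HF, 30040 to 31170 in Sham and 29230 to 30120 in BAIBA. Of these 7 markers, 6 did not overlap between HFE and HF and were higher in HFE, with a median log2 fold change of 0.21, and 0 passed an adjusted p of 0.05 (5 at an unadjusted p under 0.05). In bulk tissue, fewer cells of a type and less RNA per cell cannot be told apart. When libraries were scaled to the summed marker counts in place of TMM, the median of all genes moved to -0.21 in HFE against HF, to 0.25 in BAIBA against HFE and to -0.21 in HFE against Sham. On that scale Asph was 0.27 higher in HFE than in HF (adjusted p 0.224, unadjusted 0.0174), Trdn 0.15, Hrc 0.15 and Camk2d 0.10, and Casq2 was at -0.05. The members' median was -0.03 with 4 of 10 above 0, against the median of all genes of -0.21. In BAIBA against HFE on that scale, Asph was at -0.24 (adjusted p 0.18) and Casq2 at -0.09 (adjusted p 0.602), the members' median was 0.12 and 7 of 10 were above 0, against 0.25 for all genes. In HFE against Sham the members' median was -0.14 with 2 of 10 above 0, against -0.21 for all genes. On that scale Atp2a2 was at -0.47 in HFE against Sham, with an edgeR adjusted p of 0.0399, under the threshold for p and short of the size limit of 1. Casq2 and Camk2d turned to -0.01 and -0.13 there. The part of cardiomyocyte content in the differences between HFE and the other groups was not tested.

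Markers of other cell types also differed between rats. The summed level of 6 macrophage markers was 172 to 220 CPM in Sham, 126 to 201 in HF, 89.1 to 137 in HFE and 153 to 955 in BAIBA, where Lyz2 made up 758 CPM of the highest rat, BAIBA replicate 1. The 8 fibroblast and scar markers summed to 1572 to 1683 CPM in Sham, 1216 to 1769 in HF, 1146 to 1595 in HFE and 1515 to 2285 in BAIBA. The erythroid markers, 4 of 5 measured, summed to 901 to 1298 CPM in BAIBA, above all Sham rats (534 to 776) and all HFE rats (698 to 823), with HF at 499 to 1115. The skeletal muscle markers, 3 of 5 measured (Tnnt3, Acta1 and Ckm), summed to 1096 to 1411 CPM in BAIBA. These sums lay below all Sham rats (1566 to 1873) and all HFE rats (1624 to 1801), with HF at 1399 to 1620. Tnnt3 made up 4.52 to 9.43 CPM of the BAIBA sums, and the rest was Acta1 and Ckm. Acta1 was at 557, 92.4 and 315 CPM in BAIBA. Taken singly, 0 of these 3 genes were apart between BAIBA and Sham, BAIBA and HFE, or HFE and HF. Whether skeletal muscle content differed was not tested. The HFE rats also lay above all HF rats in the skeletal muscle sum. Without BAIBA replicate 1, and without every other single rat in turn, 0 members were called in each of the 6 pairwise comparisons. The printed pairs then stayed within 0.52 in size, so the size limit of 1 alone kept them from being called. The part of these markers in the members' values was not tested.

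Within groups, the members did not rise and fall as a unit from rat to rat. With group means removed, the correlation over the 12 rats ran from -0.737 to 0.773 among the 45 pairs of members, with a median of -0.02 and 22 pairs above 0. The highest values were those of Atp2a2 with Cacna1c (r = 0.773), Trdn with Hrc (r = 0.759) and Pln with Hrc (r = 0.754), and the lowest was that of Atp2a2 with Camk2d (r = -0.737). Atp2a2 and Pln, pump and inhibitor, had r = 0.000349. All values share their library's scaling.

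A list of 72 further genes of the same pathway, of which 66 were in the table, was read from the same fits. Of their rows, 58 to 59 passed the filter on low counts, with Calm2 counted as 2 rows. Of these, 0 were called by edgeR in each of the 6 pairwise comparisons, while DESeq2's adjusted p, with log2 fold changes beyond 1, passed Cacna1g in BAIBA against HFE and Sln in BAIBA against Sham. At an unadjusted p under 0.05, 2 of 59 were higher and 8 lower in HF against Sham (all genes 6.0%), and 6 of 58 were higher and 1 lower in HFE against HF (all genes 7.62%). In BAIBA against HF 3 of 59 were higher and 1 lower (all genes 5.55%), and in BAIBA against HFE 2 of 58 were higher and 6 lower (all genes 9.57%). In HFE against Sham 6 of 59 were higher and 3 lower (all genes 11.2%), and in BAIBA against Sham 3 of 59 were higher and 5 lower (all genes 7.41%). Among the lower ones in these comparisons was 1 row of Calm2, at -0.35 and -0.27, while its other row was at 0.11 and 0.15. The median log2 fold change of the list stayed between -0.10 and 0.07 in all 6.

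Among the junction genes and the luminal store and counter-ion genes, the 3 HF rats lay below the 3 Sham rats for Jph1, Cav3, Mtm1, Tmem38a, Tmem38b and Srl, and the 8 others tested overlapped, where 11.8% of all genes did not overlap. Srl and Tmem38b had an edgeR unadjusted p above 0.05 (0.0746 and 0.0967). In the rest of the pathway list, Ppp1r3a, Ppp1cb, 1 of 2 Calm2 rows, Cacna1d, Cacng6 and Gem were lower without overlap, Atp2a3 was higher, and all others tested overlapped. Tmem38a, the TRIC-A channel that balances charge during release, was at 264, 254 and 247 CPM in Sham and at 214, 206 and 201 in HF, a log2 fold change of -0.31 ± 0.08 (SE) with an adjusted p of 0.784 (unadjusted 0.00548). Jph1, the relative of Jph2 best known from skeletal muscle, was at 23.7, 22.3 and 26.9 CPM in Sham, 21.0, 18.9 and 18.2 in HF and 28.6, 24.7 and 24.8 in BAIBA. Its log2 fold change was 0.43 ± 0.12 for BAIBA against HF, with an adjusted p of 0.851 (unadjusted 0.00808). Jph2 was at -0.26 ± 0.18 in that comparison, with a 95% interval of -0.66 to 0.15, so its sign is not resolved. Cav3, the caveolin of muscle, was at -0.32 in HF against Sham and at 0.38 in HFE against HF, 2 values that share the HF rats. Speg, a kinase of the junction that phosphorylates Jph2 and SERCA2a, was at 0.36 ± 0.11 in HFE against HF, with an adjusted p of 0.627 (unadjusted 0.013).

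Among the genes that tune the L-type channel, the small GTPase Gem, an inhibitor of the channel, had its lowest level in HF. It was at 1.96, 2.27 and 2.76 CPM in Sham, 1.15, 1.41 and 1.59 in HF, 3.13, 2.35 and 4.12 in HFE and 4.68, 2.25 and 2.59 in BAIBA. All HF rats lay below all other rats. The log2 fold change was 1.21 ± 0.31 (SE) for HFE against HF, with an adjusted p of 0.627 (unadjusted 0.00518), and 1.20 ± 0.37 for BAIBA against HF, with an adjusted p of 0.851 (unadjusted 0.0128), and both rest on the same 3 HF rats. Its relative Rem1 was at 0.57 ± 0.13 in HFE against Sham, with an adjusted p of 0.249 (unadjusted 0.00246). The T-type channel gene Cacna1g was at 49.7, 18.6 and 18.0 CPM in HFE and at 13.6, 11.7 and 9.53 in BAIBA, a log2 fold change of -1.31 ± 0.44 with an edgeR adjusted p of 0.426 and a DESeq2 adjusted p of 0.0205.

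The closest relatives of the members were at lower levels per length in this tissue. Ryr1, the release channel of skeletal muscle, was at 0.0206 to 0.0842 FPKM over the 12 rats and Ryr3 at 0.608 to 1.45, where Ryr2 was at 58.5 or more. Casq1, the skeletal calsequestrin, was at 10.1 to 23.7 FPKM, where Casq2 was at 280 or more. Camk2a was at 5.32 to 10.8 FPKM, Camk2b at 0.22 to 1.12 and Camk2g at 0.109 to 0.697, all below the 31.6 that was the lowest value of Camk2d. Jph1 was at 3.89 to 6.89 FPKM, Jph3 at 0.0337 to 0.219, and Jph4 had 0 counts in all 12 rats. Cacna1d, the other L-type pore of the heart, was at 0.124 to 0.327 FPKM. Atp2a3, the SERCA3 pump of non-muscle cells, was at 17.7, 17.1 and 20.4 CPM in Sham and above that in every other rat, at 61.5, 26.4 and 21.3 in HF, 21.2, 23.1 and 23.6 in HFE and 24.0, 24.4 and 22.8 in BAIBA. Its log2 fold change was 0.38 ± 0.11 (SE) for BAIBA against Sham, with an adjusted p of 0.56 (unadjusted 0.00993), 0.31 ± 0.11 for HFE against Sham (adjusted p 0.366) and 0.99 ± 0.40 for HF against Sham (adjusted p 0.805), the last with 1 HF rat at 61.5 CPM and the other two nearer to Sham. These comparisons share the Sham rats. The sarcolipin gene Sln, a SERCA inhibitor of the atrium, was at 3.63, 0.713 and 5.65 CPM in Sham, at 0.0573, 0.0613 and 1.85 in HF, at 1.93, 0.0 and 0.0633 in HFE and at 0.892, 0.257 and 0.422 in BAIBA. For BAIBA against Sham its log2 fold change was -2.63 ± 0.78 (SE), with an edgeR adjusted p of 0.579 and a DESeq2 adjusted p of 0.0473, and 1 BAIBA rat lay above the lowest Sham rat. Sln counts among the atrial markers, whose summed level ran from 33.0 to 553 CPM. Fkbp1b, which encodes the ryanodine receptor partner FKBP12.6, had 0 to 3 counts per rat, a level of 0.162 FPKM at most, whereas Fkbp1a, which encodes FKBP12, was at 82.1 to 107 FPKM.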

How the data were processed

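Left ventricular RNA of 12 rats was read as poly(A)-selected, paired-end libraries, sequenced on either of 2 kinds of instrument. The authors trimmed reads, aligned them with HISAT2, assembled transcripts with StringTie and counted reads per gene with featureCounts, per the labels and the methods, with versions and strand setting not given in the sources used here. The submitters' processing notes name the mouse build mm9, whereas the identifiers are those of rat genes, so no coordinates were taken from the files. The deposited tables hold raw counts and the authors' FPKM for 34700 genes (32623 with an Ensembl identifier), and the repeated tables differ in 0 cells.

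Counts were tested with edgeR 4.0.16 in R 4.3.3 (TMM, filterByExpr, robust quasi-likelihood fit) on the 6 rats of each pair of groups, over 14804 to 15039 genes, and over 15617 genes for the 4 groups together, with Benjamini-Hochberg adjustment. CPM were computed from counts and TMM-scaled library sizes. The log2 ratio of Atp2a2 to Pln was tested by exact permutation over 20 assignments. DESeq2 1.42.0, limma 3.58.1 on log2(FPKM + 1) and log2(FPKM + 0.1), other scalings, filters and the omission of each rat were alternatives. The fit was tested on simulated counts for HF against Sham, with 200 of 14957 genes changed in each of 3 sets per fold. At an adjusted p under 0.05 from edgeR, a median of 2% of the changed genes was recovered at 1.5-fold, 49% at 2-fold and 80% at 4-fold. The median number of unchanged genes called was 3, 8 and 18. These percentages were scored on the adjusted p alone, and a call also needed a log2 fold change beyond 1. The absence of calls thus does not exclude changes of 2-fold or less, nor every larger change. Fold changes are printed for pairs with an unadjusted p under 0.05 or no overlap between groups, and for pathway genes under both or as relatives of a member. A few further values, intervals of pairs outside that rule, were added after the values were seen. The members and lists were chosen with earlier results of these data known. A listed gene without a row in the table (such as Atp2a1 and Strit1) was not analysed here.

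Replicate numbers are shared by all groups, between different rats. Same-numbered rats deviated together in BAIBA against HFE (r = 0.195, 0.261 and 0.138 over genes for numbers 1, 2 and 3) and in no other pair of groups by that measure, where the 3 values did not all pass 0.1. With the replicate block, 0 members were called in that comparison too, and the lowest edgeR adjusted p of a member there was 0.09, for Asph.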

Additional observations from a re-analysis of the deposited data

Results flagged for a closer look

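Asph and Casq2 differed between BAIBA and HFE by DESeq2's adjusted p with no fold limit, an alternative chosen after seeing the data, and not by edgeR's. They were flagged as a difference between training and BAIBA, each taken against HF. HF cancels from that difference, which leaves BAIBA against HFE, and running and BAIBA belonged to separate experiments in the methods. The log2 fold change of Asph was -0.49 (DESeq2 adjusted p 0.00035, edgeR adjusted p 0.131), and each of the 3 BAIBA rats lay below each of the 3 HFE rats. The log2 fold change of Casq2 was -0.34 (DESeq2 adjusted p 0.0438, edgeR adjusted p 0.25), again with all 3 BAIBA rats below all 3 HFE rats. When libraries were scaled to the cardiomyocyte markers, Asph was at -0.24 and Casq2 at -0.09, against a median of 0.25 for all genes. Both are under the size limit of 1 and were not called.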

How the results depend on the processing

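Of 357 values of the 21 printed pairs of member and comparison under alternatives, 348 kept their direction and their side of the adjusted p threshold, 5 moved past it and 4 turned direction. The 4 that turned did so when libraries were scaled to the cardiomyocyte markers: Casq2 to -0.05 in HFE against HF, Camk2d to 0.16 in BAIBA against HFE, and Casq2 and Camk2d to -0.01 and -0.13 in HFE against Sham. By construction that scale lowers HFE, where the markers are highest. On that scale Asph and Casq2 were at -0.24 and -0.09 in BAIBA against HFE. The call of 0 members held under every alternative that kept both limits. No printed pair went beyond 0.52 in size under an alternative or with a rat left out. The size limit of 1 alone thus kept these pairs from being called, and the 0 says nothing about their adjusted p. Without the fold limit and with the unadjusted p, 1 member passed in HF against Sham, 4 in HFE against HF, 2 in BAIBA against HFE, 4 in HFE against Sham, 1 in BAIBA against Sham and 3 for any difference among the 4 groups. With DESeq2's adjusted p and no fold limit, an alternative chosen after seeing the data, 1 passed in HFE against HF (Asph), 2 in BAIBA against HFE (Asph and Casq2) and 1 in HFE against Sham (Asph). With the replicate block, 0 members were called in each comparison, and in BAIBA against HFE the blocked fit gave Asph -0.49 with an adjusted p of 0.09. The pump to inhibitor log2 ratio ranged from -0.03 (without HF replicate 3) to 0.16 in HF against Sham and from -0.19 to 0.02 (without BAIBA replicate 2) in BAIBA against Sham when single rats were left out. Counts of the members were at least 1629 per rat, and each group had 3 rats.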

Other observations

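Store-operated entry refills the store through Stim1, the calcium sensor of its membrane, which belongs to the pathway list and not to the 10 members. Stim1 was at 31.2, 33.5 and 38.0 CPM in Sham, at 42.1, 32.5 and 41.3 in HF, at 36.9, 34.9 and 39.6 in HFE and at 43.2, 46.4 and 46.8 in BAIBA, where all 3 rats lay above all other 9. The log2 fold change for BAIBA against Sham was 0.41 ± 0.10 (SE), with an edgeR adjusted p of 0.435 (unadjusted 0.00396). It was 0.23 ± 0.13 for BAIBA against HF (adjusted p 0.851, unadjusted 0.101), where the nearest rats were at 43.2 and 42.1 CPM. For BAIBA against HFE it was 0.29 ± 0.09 (adjusted p 0.343, unadjusted 0.0129). Rrad, an inhibitor of the L-type channel like Gem, was at 175, 190 and 154 CPM in Sham and at 136, 114 and 150 in BAIBA, a log2 fold change of -0.37 ± 0.13 with an adjusted p of 0.616 (unadjusted 0.0198). Prkar2a, a regulatory subunit of protein kinase A, was at 54.1, 47.5 and 53.1 CPM in Sham, at 40.0, 44.2 and 48.1 in HF, at 35.0, 37.2 and 45.6 in HFE and at 39.1, 37.3 and 50.1 in BAIBA. Against Sham its log2 fold change was -0.23 in HF, -0.29 in BAIBA and -0.39 ± 0.11 in HFE, the last with an adjusted p of 0.304 (unadjusted 0.00913).

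Among the 8188 genes searched, the gene most like each member over the 12 rats was Fbxo40 for Atp2a2 (r = 0.944), Tada3 for Pln (r = 0.898), Sun2 for Cacna1c (r = 0.92), Slc35f5 for Casq2 (r = 0.94) and Gstm2 for Trdn (r = 0.894). It was Spag7 for Hrc (r = 0.897), Mlf2 for Jph2 (r = 0.928) and Ostc for Camk2d (r = 0.918). Gstm2 was also among the 3 genes most like Hrc (r = 0.881), and Tnni3, a cardiomyocyte marker, among the 3 most like Trdn (r = 0.871). These values are descriptions over rats that share their library's scaling.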
